A study of Drosophila melanogaster with 3 samples.

Results

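Binding of the corepressor Coop was examined at 10 target genes of Wingless signalling in Drosophila melanogaster, of 13968 protein-coding genes in the annotation. The genes were nkd, fz3, Notum, nmo, Dtg, ct, Dll, vg, sens and ac, and they were taken by name as known targets that Coop could repress together with the DNA-binding factor Pangolin (Pan). Chromatin came from whole prepupae of mixed sex, aged 24 h, of 1 transgenic line that stably expressed Coop (CG1621) with a green fluorescent protein (eGFP) at its C-terminal end. All 3 biological replicates belonged to that 1 group, and every animal carried the tagged transgene. The labels do not agree on the kind of library: 1 free-text field calls each an input control, but the assay title, the antibody entry and the deposited notes point to chromatin immunoprecipitation (ChIP-seq) against a separate control. Here they are taken to be immunoprecipitates of Coop-eGFP, an assumption behind all values below. Whole animals were used, so the tissue in which a site was occupied cannot be told apart. Expression was not measured, so whether these genes responded to Wingless in these animals was not tested.

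Wingless is the founding Wnt ligand of the fly. Without the ligand, the TCF factor Pan sits at target genes with corepressors such as Groucho and keeps them low, and with the ligand, Armadillo (beta-catenin) enters the nucleus, binds Pan and activates them. Coop, a corepressor, binds Pan and is known to compete with Armadillo for it. Many targets are themselves antagonists of the pathway, so that the signal limits its own range, and others are transcription factors that pattern the wing margin, the legs and the sensory bristles.

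Per the deposited notes, the 3 replicate lists were each made against 1 and the same control alignment, so they are not independent of that control. The deposited lists comprised 30000 relaxed regions for each replicate, 30000 relaxed regions from the pooled replicates and 6626 thresholded peaks, which were the strongest of the pooled regions. Each peak has a summit, the base of highest enrichment, and a signal, a score given by the peak caller that the authors used. Signals in the thresholded list ran from 170.6 to 8603.1 with a median of 287.1. The scale of the signal differed between lists, with medians of 26.0, 34.9 and 28.9 in replicates 1, 2 and 3, so replicates were compared by rank, where rank 1 is the strongest region. Read depth was not known. A promoter summit lay within 500 bp of a protein-coding transcription start site (TSS), and the region of a gene was its body with 5 kb on each side. A thresholded summit was counted as found in a replicate when one of the 6626 strongest summits of that replicate lay within 100 bp.

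Coop-eGFP had a thresholded promoter summit at 5 of the 10 genes, namely Dtg, ct, fz3, Dll and nkd. Of all protein-coding genes, 21.1% had one. Notum, nmo, vg, sens and ac had none. In the body or within 5 kb, 8 of the 10 genes held at least 1 thresholded summit, all but sens and ac, whereas 51.2% of all protein-coding genes did. The 8 genes held 31 thresholded summits, with 7 each at fz3 and nmo, 5 each at nkd and ct, 4 at Notum and 1 each at Dll, vg and Dtg. By place, 6 of the 31 were promoter summits, 15 lay elsewhere in the gene body, 6 upstream and 4 downstream. All 15 in the body were in introns, 10 of them in first introns, and none was in coding sequence. The fz3 summits in first introns lay in the only intron of the transcript used. No share of all thresholded summits was set beside these places, so they are not read as a feature of these genes. Not every summit belongs to the named gene, since 2 of the 31 lay within 500 bp of the TSS of another protein-coding gene and 3 inside another protein-coding gene. With 1 group and genes chosen by name with earlier results of these data known, no test was made of these counts.

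**Figure D1:**
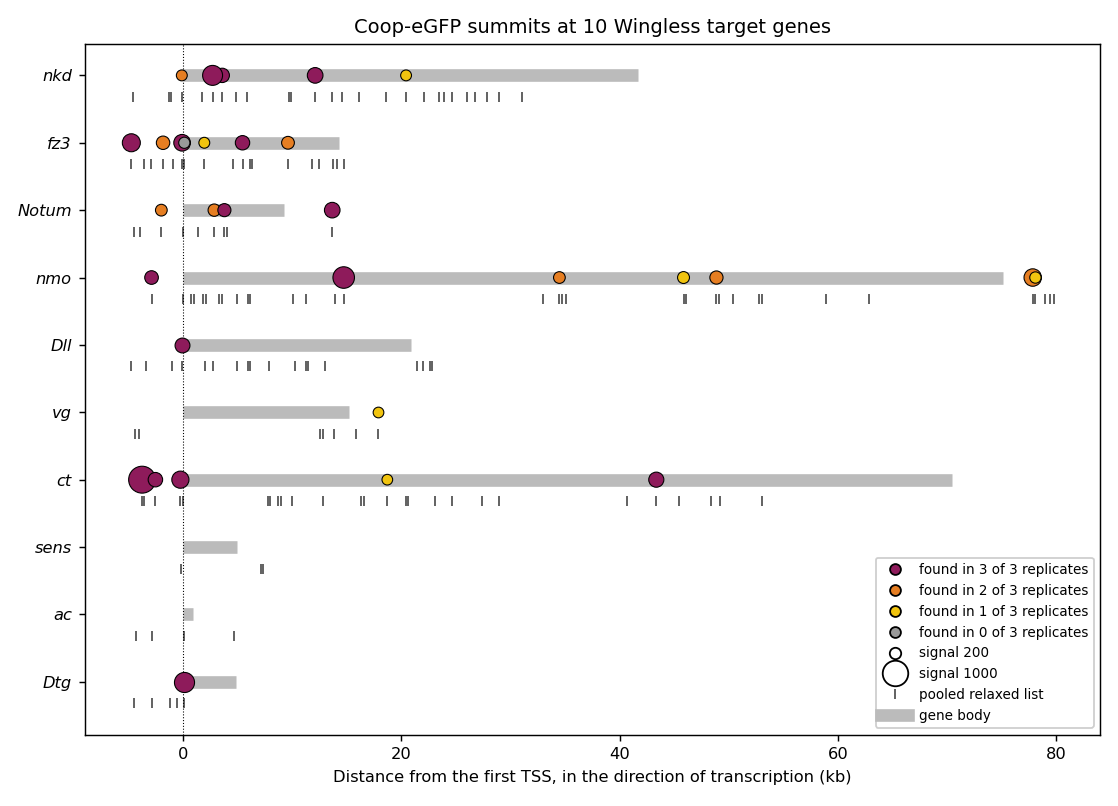
Each row is a gene drawn 5′ to 3′, with distance from its first TSS in kb on the horizontal axis. Grey bars are gene bodies, circles are thresholded summits with area by signal and colour by the number of replicates in which they were found, and ticks are summits of the pooled relaxed list. The largest circle, signal 1110.3, lies upstream of ct, and the rows of sens and ac have no circle.

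Among the antagonists of the pathway, naked cuticle (nkd, FBgn0002945) encodes an inducible inhibitor that binds Dishevelled and is a classic negative feedback gene. It spans 3L 19003741 to 19045449 on the minus strand of dm6 and has 1 annotated TSS. Its promoter summit at 19045562, 113 bp upstream of the TSS, was weak, with a signal of 182.5 and rank 6074 of 6626. The nearest promoter summits ranked 4136, 6306 and 4552 in replicates 1, 2 and 3, so it was among the strongest regions of each replicate, although that of replicate 1 lay 109 bp away and was not counted as found. The other 4 summits were all in intron 1 of 4. The strongest of them, at 19042743 and 2706 bp downstream of the TSS, had a signal of 611.1 and rank 1027. Its ranks were 4008, 542 and 1147 in replicates 1, 2 and 3, so replicate 1 placed it lower than the others. Summits at 19041859 (signal 316.2) and 19033348 (signal 375.6, also inside the noncoding gene lncRNA:CR45940) were found in all 3 replicates as well. The summit at 19025019, with a signal of 180.4, was found in replicate 3 only.

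The sequence under the strongest nkd summit is shown because it had the highest signal at nkd and held none of the motifs searched (described below). It is read from the RefSeq release 6 genome (dm6), plus strand, chr3L:19042703-19042783, centred on the summit, with no capitals because nothing matched.
nkd intron 1 summit: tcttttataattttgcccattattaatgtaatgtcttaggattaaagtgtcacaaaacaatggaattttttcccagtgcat

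frizzled 3 (fz3, FBgn0027343), at X 769945 to 784222 on the plus strand, encodes a Frizzled-family receptor that Wingless induces. It had 3 annotated TSS and 7 thresholded summits. The promoter summit at 769860, 85 bp upstream of the first TSS, had a signal of 425.8 and rank 1830. It ranked 1818, 2075 and 2448 in the 3 replicates, the closest agreement of ranks among the 5 bound promoters. A second promoter summit at 770059, in the 5′ UTR, had a signal of 192.2 and was the only one of the 31 summits found in no replicate. In replicate 2 the nearest summit was the one already matched to the promoter summit, 136 bp away, and in replicates 1 and 3 the nearest ranked 9821 and 11607. Introns of fz3 held summits at 775393 (signal 317.6, found in 3 replicates), 779558 (rank 4097, found in 2) and 771892 (signal 182.1, found in 1). Upstream, the summit at 768114 (signal 276.4) ranked 1739 and 3378 in replicates 1 and 2. In replicate 3 the nearest summit, at 768185, ranked 19545, and another close by, at 767979, ranked 9704. The strongest summit of the region, at 765208 with a signal of 497.2, was 78 bp from the TSS of RpL22 (a ribosomal protein gene that lies upstream) and far nearer to it than to that of fz3. RpL22 was named after its value was seen.

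The fz3 promoter is shown because both of its summits had a TATCGATA element, the DRE bound by the factor Dref, within 100 bp. The sequence is from the same genome, plus strand, chrX:769881-769967, with the 2 elements in capitals. The first TSS, at 769945, falls inside the first element, which begins at 769941, and the last 23 bases are annotated as UTR.
fz3 promoter: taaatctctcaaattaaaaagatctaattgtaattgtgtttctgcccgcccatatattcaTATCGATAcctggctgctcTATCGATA

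Notum (FBgn0044028), at 3L 16023480 to 16032752 on the plus strand, encodes a secreted carboxylesterase that removes the lipid from Wnt ligands. Its promoter was in every relaxed list but in no list of the strongest regions. The promoter summit ranked 11629, 14429 and 9607 in replicates 1, 2 and 3 and 10324 in the pooled list, between 1 bp upstream and 49 bp downstream of the TSS. Both summits in its body were in intron 1 of 3. The summit at 16027267, with a signal of 262.9, ranked 2835, 6184 and 3667 in the replicates and was found in all 3. The summit at 16026338, with a signal of 234.4, ranked 3639 and 3598 in replicates 1 and 2 and 12386 in replicate 3. Another summit, 1989 bp upstream at 16021491 (signal 211.4), was found in 2 replicates and lay in the noncoding genes lncRNA:CR45998 and lncRNA:CR43949. The strongest in the region, at 16037146 with a signal of 373.7, was inside the neighbouring gene CG5895, 1468 bp from its TSS, and was found in all 3 replicates.

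The intron summit of Notum at 16027267 had the only GCCGCC match, the helper element that Pan's C-clamp domain is known to bind, among the 31 windows. It is at 92 to 97 bp from the summit, in capitals below, in the same genome, plus strand, chr3L:16027334-16027389. No TCF-type Pan site was in that window.
Notum intron 1: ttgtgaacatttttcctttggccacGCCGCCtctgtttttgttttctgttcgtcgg

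nemo (nmo, FBgn0011817) encodes the founding Nemo-like kinase, which antagonises Wingless in the wing. It spans 3L 7979046 to 8054147 on the plus strand, and it was the only one of the 10 genes with a divergent TSS within 1000 bp, that of Pop4 at 396 bp. Its promoter summit ranked 14787, 9639 and 17900 in replicates 1, 2 and 3 and 11604 in the pooled list, the weakest of the 9 genes with a pooled promoter summit. The body summits were all in intron 3 of 8. The one at 7993763, 14717 bp from the TSS, had a signal of 712.2, second among the 31 summits. It ranked 409, 1278 and 977 in the replicates, all high. The other 3 intron summits, at 8013521, 8024891 and 8027907, had signals of 210.9, 218.3 and 267.1 and were found in 2, 1 and 2 replicates. Replicate 1 lacked all 3 within 100 bp, with its nearest summits 149 to 206 bp away. The summits at 8024891 and 8027907 were nearer to the TSS of the downstream gene bip1, at 31484 and 28468 bp. The nmo TSS was 45845 and 48861 bp from them. Downstream, the summits at 8056881 (signal 466.9) and 8057127 (signal 197.5) shared 1 interval inside bip1, the first of them 506 bp from the bip1 TSS. Upstream, the summit at 7976160 (signal 285.2, found in 3 replicates) was 6 bp from the TSS of HP4, a heterochromatin protein gene that was named after its value was seen.

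Sequences at nmo are shown for the strongest intron summit, for the intron summit with the only M1BP element (GGTCACACT) of the 31 windows, and for the HP4 promoter, which held the only Pan site. They are from the same genome, plus strand, at chr3L:7993723-7993803, chr3L:8013488-8013546 and chr3L:7976066-7976095. Capitals mark the M1BP element, whose last base is the summit, and the Pan site (the reverse complement of CTTTGAA), which lies 83 to 77 bp before its summit. All 30 bases of that last sequence are annotated as UTR. The first sequence held none of the motifs searched.
nmo intron 3, strongest summit: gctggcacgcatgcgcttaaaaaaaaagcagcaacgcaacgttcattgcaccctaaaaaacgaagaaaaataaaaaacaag
nmo intron 3, M1BP element: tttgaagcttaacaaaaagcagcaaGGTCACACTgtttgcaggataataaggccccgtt
HP4 promoter upstream of nmo, Pan site: gaaatttctctTTCAAAGtcgaaaaaacct

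Dtg (FBgn0038071), described in RefSeq as a Dpp target gene, is a short gene at 3R 12648058 to 12652910 on the plus strand. Its promoter summit was the strongest of the 10 genes, with a signal of 619.4 and rank 1004. The summit at 12648148 lay in the 5′ UTR, 90 bp downstream of the TSS, and ranked 461, 1731 and 1459 in replicates 1, 2 and 3. Their summits were within 12 bp of the pooled one. It was the only thresholded summit of the Dtg region, and 2 copies of CAGCTG, a form of E-box used by proneural factors, lay 14 to 19 and 43 to 48 bp downstream of it. The first copy is in capitals in the sequence from the same genome, plus strand, chr3R:12648151-12648180.
Dtg 5′ UTR: agttatagcaaCAGCTGaaagtctcgagaa

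cut (ct, FBgn0004198), at X 7608428 to 7678859 on the plus strand, encodes the homeodomain factor that marks the wing margin and external sense organs. The summit at 7604677, 3751 bp upstream of the first TSS, was the strongest of the 31, with a signal of 1110.3 and rank 320. It ranked 334, 343 and 464 in the replicates, with summits 3 to 10 bp from the pooled one, and ct had the nearest TSS. A weaker upstream summit at 7605895 (signal 321.0) was found in all 3 replicates. The promoter summit at 7608184, 244 bp upstream of the first TSS, had a signal of 450.8 and rank 1672 and ranked 1118, 2795 and 1770 in the replicates. Intron 2 of 6 held a summit at 7651780 with a signal of 350.6, found in all 3 replicates. Intron 1 held one at 7627140 with a signal of 174.7, near the bottom of the thresholded list, which was found in replicate 2 only.

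The strongest ct summit is shown as the site of highest signal among the 10 genes, with none of the motifs searched, and the weak intron summit because it had the only GAGAGAG matches, an element bound by the GAGA factor Trl. Both are from the same genome, plus strand, chrX:7604637-7604717 and chrX:7627024-7627164. Capitals mark the GAGAGAG matches. That window also held 1 copy of CAGCTG, in lower case near its end.
ct upstream, strongest summit: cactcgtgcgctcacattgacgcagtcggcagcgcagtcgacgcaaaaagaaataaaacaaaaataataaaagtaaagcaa
ct intron 1: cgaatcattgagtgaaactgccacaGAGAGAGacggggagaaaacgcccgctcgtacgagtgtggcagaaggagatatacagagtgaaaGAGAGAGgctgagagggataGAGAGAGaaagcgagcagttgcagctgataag

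The bristle genes senseless and achaete had no thresholded summit within 5 kb. senseless (sens, FBgn0002573), at 3L 13396228 to 13401125 on the minus strand, encodes a zinc finger factor of sensory organ precursors. Its promoter summit ranked 10367, 11594 and 9969 in replicates 1, 2 and 3 and 9188 in the pooled list, below the strongest 6626 in each. achaete (ac, FBgn0000022), at X 370031 to 370947 on the plus strand, encodes a proneural bHLH factor. Its promoter summit ranked 9376, 10618 and 5192, so it was among the strongest regions in replicate 3 alone, and it ranked 7643 in the pooled list. The nearest thresholded summit to sens was at 13407105, 5980 bp upstream of the gene, where its signal was 172.4 and its rank 6533, close to the bottom of the list. It was found in 2 replicates, and the TSS of CG10222 was nearer to it than that of sens, at 5348 bp. The nearest thresholded summit to ac was at 361608, 8423 bp upstream, with a signal of 527.0, and it was found in all 3 replicates. That summit lay inside CG32816, with the TSS of y nearest at 5099 bp. CG10222, CG32816 and y were named after their values were seen.

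The appendage selector genes Distal-less and vestigial each had 1 thresholded summit. The median was 2 in genes of 20 kb or more, as Dll is, and 1 in those of 5 to 20 kb, as vg is. Distal-less (Dll, FBgn0000157), at 24814822 to 24835667, encodes a homeodomain factor of legs and wing margin. Its only thresholded summit was at the promoter, at 24814731 and 91 bp upstream of the TSS, with a signal of 340.1 and rank 2580. It ranked 5407, 2479 and 2246 in the replicates, lowest in replicate 1. The window of 100 bp on each side of it had a GC content of 66.2%, the highest of the 31 windows, whose median was 36.8% against 39.8% for all thresholded summits. vestigial (vg, FBgn0003975), at 12884201 to 12899385, encodes the partner of Scalloped that specifies the wing. Its promoter was absent from the pooled list and from replicates 2 and 3, and in replicate 1 it ranked 6664, just below the strongest 6626. A downstream summit at 12902040, 17408 bp from the nearest vg TSS, had a signal of 175.1 and rank 6429, and was found in replicate 3 only. The nearest summit of replicate 1 ranked 5876 but lay 113 bp away, and that of replicate 2, at 35 bp, ranked 8236. The summit at 12902040 is the only one that places vg among the 8 genes. The TSS of NAT1, named after its value was seen, was nearer to it, at 13954 bp. Dll and vg are both on the plus strand of chromosome arm 2R.

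**Figure D2:**
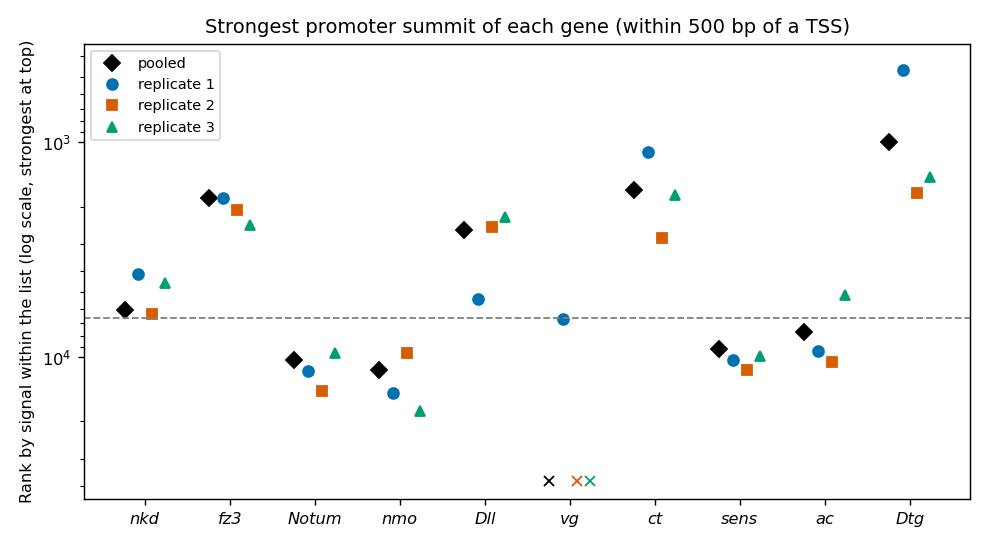
For each gene, the vertical log axis gives the rank by signal of its strongest promoter summit in the pooled list and in replicates 1, 2 and 3, with the strongest at the top. The dashed line is rank 6626, and crosses at the bottom mark lists without a promoter summit. All points of nkd, fz3, Dll, ct and Dtg lie above the line, the only other point above it is replicate 3 of ac, and vg has 1 point, at rank 6664 in replicate 1.

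The same 5 promoters were among the 6626 strongest regions in every replicate. Replicates 1, 2 and 3 had 5, 5 and 6 of the 10 promoters there, the sixth being ac in replicate 3, with a mean of 5.33 ± 0.577 (SD, n = 3). Of all protein-coding genes, 25.9% had a promoter summit among the strongest regions of replicate 1, 21.3% in replicate 2 and 18.1% in replicate 3 (21.8% ± 3.93, SD, n = 3). In all 3 replicates together, 5 of the 10 genes had one, beside 12.7% of all protein-coding genes. In the relaxed pooled list, 9 of the 10 genes had a promoter summit, all but vg, beside 41.3% of all protein-coding genes. The same 9 had one in the relaxed lists of all 3 replicates, beside 28.5%.

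By strength, the promoters of Dtg, ct, fz3 and Dll lay between 20.7% and 44.7% of the way down the bound genes. That of nkd lay at 94.0%, near the bottom. Among the 2953 protein-coding genes with a thresholded promoter summit, Dtg was 612th, ct 920th, fz3 979th, Dll 1321st and nkd 2777th. Their median signal was 425.8, and that of all bound genes was 308.1. Over all 31 summits the median was 285.2, close to the 287.1 of the whole list, and 15 of them were in its stronger 3313. Just below the threshold, whose lowest signal was 170.6, the next summits of these genes in the pooled list were in nkd at 19040557 (signal 163.4), in nmo at 7983952 (signal 161.1) and downstream of sens at 13393777 (signal 159.4). Just above it were the ct intron summit (signal 174.7) and the vg downstream summit (signal 175.1).

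Long genes have more room for summits, so the count over regions was also set beside genes of like length. Among genes under 5 kb, 1 of 3 (Dtg, with sens and ac lacking one) held a thresholded summit in its region, beside 46.4% of all such genes. Among genes of 5 to 20 kb, all 3 (fz3, Notum and vg) did, beside 62.7%. Among genes of 20 kb or more, all 4 (nkd, Dll, ct and nmo) did, beside 71.9%. With most long genes holding a summit and 3 or 4 genes per class, the count of 8 regions is not read as a feature of these genes.

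fz3 held many summits for its length. In the class of 5 to 20 kb, 36 of 2472 genes (1.46%) had 7 or more thresholded summits, as fz3 did. Of its 7, however, 1 was at the RpL22 promoter and 2 were promoter summits of fz3. Of those 2, the one at 770059 was found in no replicate. Notum, with 4, was matched or exceeded by 260 of the genes in that class (10.5%), and vg, with 1, by 1550 (62.7%). Among genes of 20 kb or more, 135 of 1020 (13.2%) had as many as nmo, 241 (23.6%) as many as nkd or ct, and 733 (71.9%) as many as Dll. Per length of region, the 10 genes held 8.67 thresholded summits per 100 kb, and all protein-coding gene regions held 5.43. The length classes did not all go the same way: the 10 genes held 2.46 per 100 kb under 5 kb, where all such genes held 6.32, 17.5 beside 7.21 at 5 to 20 kb, and 7.26 beside 4.65 at 20 kb or more. The density was 28.8 per 100 kb at fz3, 20.8 at Notum, 9.67 at nkd, 8.23 at nmo, 6.73 at Dtg, 6.22 at ct, 3.97 at vg, 3.24 at Dll and 0 at sens and ac. The median number of summits was 0 in genes under 5 kb, 1 in those of 5 to 20 kb and 2 in longer ones.

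The relaxed lists are longer, and the number of summits at these genes followed list length. The 10 regions had 149 summits in the pooled relaxed list (0.497% of it) and 155, 131 and 131 in replicates 1, 2 and 3 (0.517%, 0.437% and 0.437%), beside 31 (0.468%) in the thresholded list. The counts per replicate were 38, 33 and 23 at nmo, 29, 24 and 25 at nkd, 25, 21 and 19 at ct and 18, 17 and 18 at fz3. At Dll, replicates 1, 2 and 3 had 10, 12 and 16 relaxed summits although only 1 was thresholded, and at vg they had 9, 3 and 4. sens had 3, 2 and 4 and ac 3, 3 and 6.

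Of the 31 thresholded summits, 16 (51.6%) were found in all 3 replicates, beside 48.0% of all thresholded summits. A further 8 were found in 2 replicates, 6 in 1 and 1 in none. Replicate 1 held 18 of them (58.1%, and 69.5% of all thresholded summits), replicate 2 held 27 (87.1%, and 82.3%) and replicate 3 held 25 (80.6%, and 78.1%). The summits not counted as found in replicate 1 were mainly at nmo, with 5 of its 7, and fz3, with 3 of its 7. At nmo the nearest summits in replicate 1 ranked 14641, 9887, 5687, 1955 and 6942. Those ranked 5687 and 1955 were among its strongest regions but lay 206 and 151 bp away, beyond the match distance. At fz3 the nearest ranked 9821, 11541 and 11321. All summits of Dll and Dtg were found in every replicate, as were 4 of 5 at ct.

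**Figure D3:**
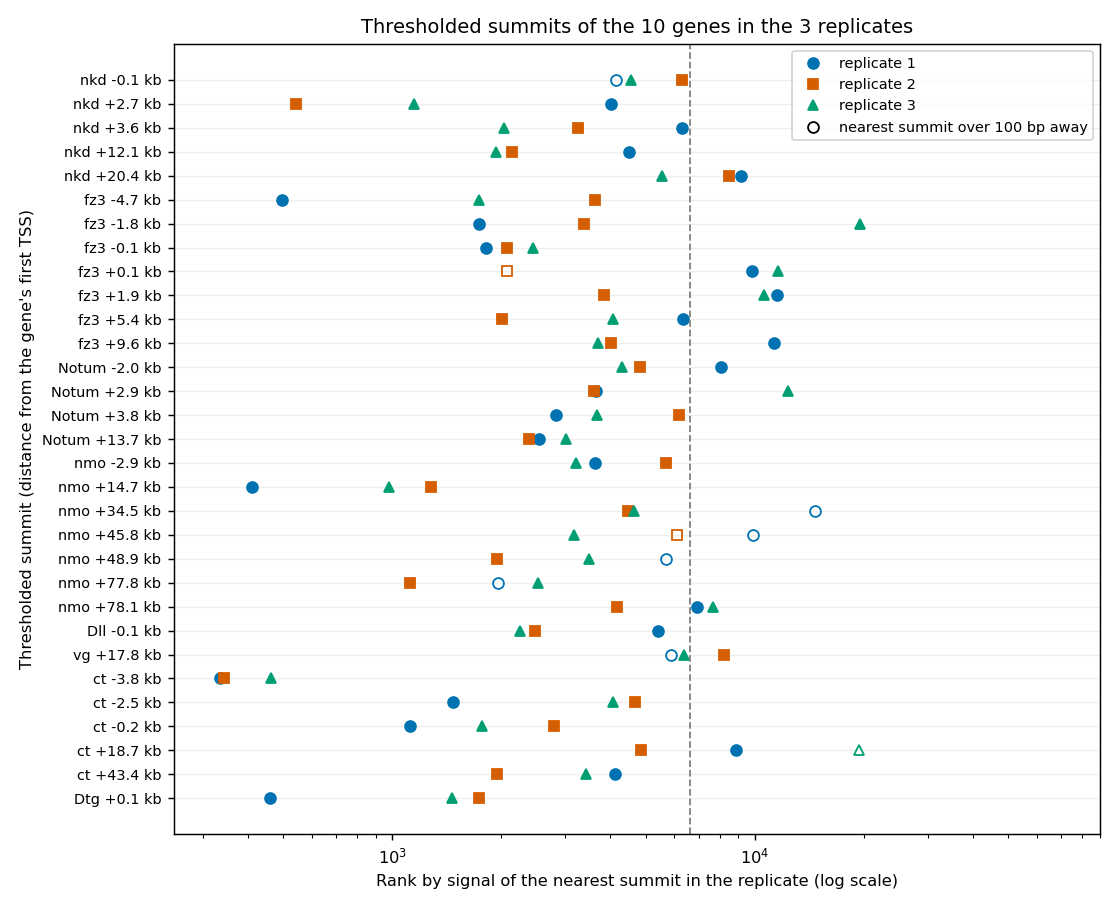
Each row is a thresholded summit of the 10 genes, named by its distance in kb from the first TSS of the gene, and the log axis gives the rank of the nearest summit in each replicate. Open symbols are more than 100 bp away and the dashed line is rank 6626. The 16 summits found in all 3 replicates have 3 filled symbols left of the line, and the summit upstream of ct has the leftmost cluster, at ranks 334 to 464.

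Searched on both strands within 100 bp on each side of every summit, a Pan site of the form CTTTGAT or CTTTGAA occurred in 1 of the 31 windows (3.23%), at the HP4 promoter upstream of nmo, and in 6.61% of all thresholded windows. The helper element GCCGCC occurred in 1 window, at Notum, and in 8.71% of all. TATCGATA occurred in 2 windows, both at the fz3 promoter, and in 2.2% of all, GGTCACACT in 1 (nmo) and in 1.69%, and GAGAGAG in 1 (ct) and in 6.93%. CAGCTG occurred in 2 windows, at Dtg and ct, and in 9.52% of all. GTGGGAA, a Su(H) site of Notch signalling, and the E-box CACGTG occurred in none of the 31, and in 2.58% and 2.25% of all windows. In the 31 windows no match overlapped a match of another motif, but the windows of the fz3 promoter summits overlap and are not separate. A match describes the letters in a window and not occupancy by the factor.

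**Figure D4:**
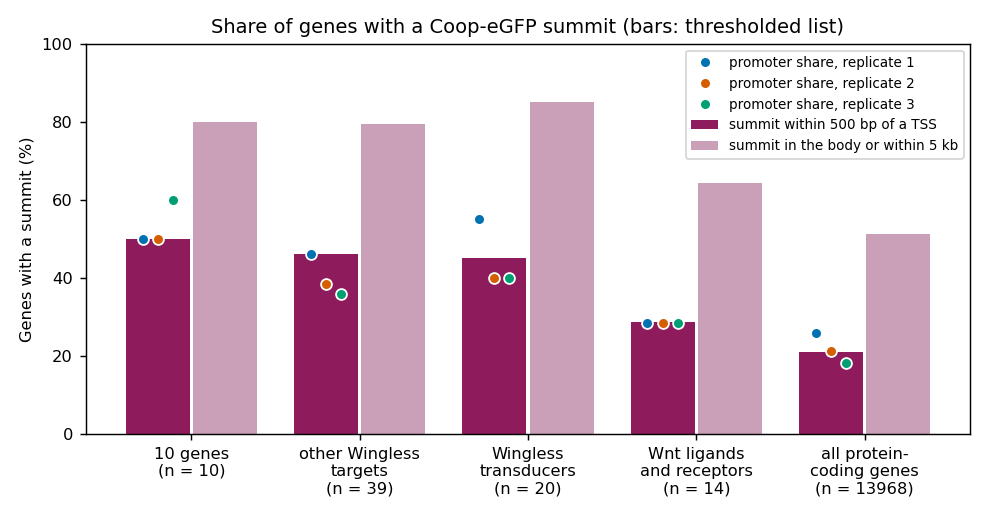
Dark bars give the percent of genes in each list with a thresholded promoter summit, light bars the percent with a thresholded summit in the body or within 5 kb, and points the promoter percent among the strongest regions of each replicate. The 10 genes have dark and light bars for 5 and 8 of 10, and all protein-coding genes have bars at 21.1% and 51.2%.

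Other genes of the pathway were counted in the same way. Of 39 further Wingless targets, 18 (46.2%) had a thresholded promoter summit and 31 (79.5%) one in the region, with promoter counts of 18, 15 and 14 in replicates 1, 2 and 3. The strongest of these promoters were those of the transcription factor genes zfh2 (signal 689.8) and bowl (669.3), tara (510.0) and the ETS factor gene pnt (421.5), of which zfh2 and bowl exceeded Dtg. Of 14 Wnt ligands and receptors, 4 (28.6%) had a promoter summit, in the ligand gene wg (299.5), the co-receptor gene otk (292.3) and the receptor genes fz2 (237.5) and fz (187.9), all weaker than fz3. Of 20 genes for transducers and nuclear partners, 9 (45.0%) had one, led by Coop itself (3744.8), the kinase genes gish (1787.1) and sgg (1744.8) and the corepressor gene gro (1179.4). Binding at the Coop gene and an effect of the transgene cannot be told apart. The lists share genes, 4 between targets and ligands or receptors and 1 between targets and transducers, and no difference between lists was tested.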

How the data were processed

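ChIP-seq peak lists of Coop-eGFP were analysed for 3 replicates of 1 group. The signal column is a score deposited by the authors, and peaks of 1 list were ranked by it. The caller's name, version and threshold are not given in the sources used here. A capped −log10 q value, also deposited, was left out. The build is dm6, per the labels. Fragments were 200 to 800 bp, per the labels' protocols. Depth is unknown, so its precision could not be given.

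The 10 genes and the lists were chosen with earlier results of these data known. Summits were assigned to Ensembl release 115 genes (BDGP 6.54), whose coordinates for the 10 genes equalled RefSeq's, with Python 3.11.15 and pandas 2.3.3. Named genes were the 10 genes, other protein-coding genes overlapping a thresholded summit within 5 kb, and the 4 strongest bound genes of each other list. RpL22, HP4, Pop4, NAT1, CG10222, CG32816, y and the noncoding genes are exceptions to it, picked once their values had been seen. Counting was tested on simulated data. Of 40 other targets, 1 was not analysed here. The promoter window, region, peak strength, match distance, motif window and replicates were varied.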

Additional observations from a re-analysis of the deposited data

How the results depend on the processing

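The count of 5 bound promoters stayed at 5 with windows of 250 or 1000 bp or the nearest TSS only, and was 4 in the stronger 3313 peaks or in peaks found in all 3 replicates. The count of 8 regions ranged from 7 to 10 over its alternatives, and the mean of 5.33 promoters over replicates from 3.67 to 5.5. The 31 summits became 15 in the stronger 3313 peaks, by construction fewer peaks, and 23 to 44 under the other alternatives. In place of 16, the summits found in all 3 replicates were 10 (32.3%, and 36.7% of all) at a match distance of 50 bp, 20 (64.5%, and 55.4% of all) at 250 bp and 23 (74.2%, and 80.1%) in the relaxed lists. Without replicate 1, 2 or 3 in turn, 22, 16 and 18 were found in both others (71.0%, 51.6% and 58.1%, and 66.5%, 54.6% and 58.3% of all), so these genes fell on both sides of the share of all summits. The Pan site occurred in 0 windows reaching 50 bp on each side of the summit and in 3 reaching 200 bp, where all summits had 3.43% and 12.3%. Each longer window contains the shorter one, so the direction of these shifts in motif counts was fixed in advance. Depth and the shared control limit every count. No paired analysis was possible because all replicates belong to 1 group.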
